A study of Mus musculus with 6 samples.

Results

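Peroxisomes are small organelles, abundant in hepatocytes, that shorten very long and branched fatty acids, start ether lipid synthesis and contain oxidases whose hydrogen peroxide is broken down by catalase. The peroxins, encoded by Pex genes, import proteins into the organelle, insert its membrane proteins and divide it. In rodent liver many genes of peroxisomal fatty acid oxidation are textbook targets of the nuclear receptor PPARalpha. The genes described here are 42 of the 30889 genes in the deposited table, chosen by symbol: 13 peroxins and 29 enzymes and transporters. All 42 were found in the table and all 42 passed the filter on low counts.

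Poly(A) RNA from mouse liver was sequenced from 3 control libraries, made from mice given phosphate buffer saline, and 3 extract libraries, made from mice given a water extract of the herb Emilia sonchifolia. Both groups are labelled oral, 14 days. The sources used here name no strain, sex, age or dose. The libraries held 51219533 to 61432016 counts, and nothing in the labels says that each is a separate animal. The spread behind every p-value is therefore that among these libraries only, and may be technical. Levels are given as FPKM, which is scaled for gene length and depth, and differences as edgeR fold changes of the counts with Benjamini-Hochberg adjusted p, called at 0.05 over the 18071 genes tested. A log2 fold change is extract against control, ± its standard error.

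Of 8 hepatocyte markers 7 were found by symbol, and their summed level was 38067 to 46929 FPKM in control and 38974 to 39330 FPKM in extract. Most of that sum was Alb, which was not called. Of the other 6, Ahsg, Apob, Cps1 and Fgb were called higher (1.14-fold to 1.25-fold) and Apoa1 and Ttr lower (0.88-fold and 0.87-fold), changes of the size of many peroxisomal ones. Summed levels of blood, Kupffer and endothelial cell markers were lower with the extract. The summed level of 6 red cell markers was 1272 to 1616 FPKM in control and 198 to 236 FPKM in extract. Alas2 fell least of these, to 0.81-fold. For 4 neutrophil markers the summed level was 49 to 102 against 8.24 to 11.8 FPKM, and for 6 lymphocyte markers 6.51 to 18.5 against 3.57 to 4.16 FPKM. Ighm held a mean of 10.8 of the 14 FPKM of the lymphocyte markers in control. Cd79a, Cd79b and Cd3e were not called (edgeR adjusted p = 0.137, 0.236 and 0.0663). Kupffer cell markers (7 genes) summed to 335 to 344 against 200 to 215 FPKM, sinusoidal endothelial markers (4 genes) to 35.5 to 39 against 27.4 to 29.3 FPKM, whereas stellate and bile duct markers (4 genes) overlapped at 25.5 to 38.3 against 24.6 to 30.9 FPKM. The 6 pancreas and muscle markers summed to 35 to 101 against 123 to 166 FPKM and were not called (edgeR adjusted p = 0.368 to 0.595), but control 3 stood apart from controls 1 and 2 in them. Ctrb1, made in the pancreas, had 21.6 FPKM in control 3, as against 0 and 0.245 FPKM in controls 1 and 2 and 20.6 to 24.3 FPKM in extracts. Acta1, of skeletal muscle, had 0.216 FPKM in control 3, as against 49.7 and 38.4 FPKM in controls 1 and 2 and 38.6 to 69.1 FPKM in extracts. Prss2 was at 0 in control 1, and Cpa1 in controls 1 and 2. The part of these markers in the peroxisomal results was not tested. In whole liver, fewer cells of a type and less RNA per cell cannot be told apart.

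Many transcripts of peroxisomal enzymes and transporters were higher with the extract, while most peroxins were not called. Of the 29 enzyme and transporter genes, 15 were higher with the extract, 4 were lower and 10 were not called, which is 65.5% called against 26.9% of all genes tested. Of the 13 peroxins, 3 were higher, 1 was lower and 9 were not called, which is 30.8%, close to that background. Without control 3 the calls were 16 higher and 4 lower among the enzymes and transporters, and 2 higher and 1 lower among the peroxins. The median log2 fold change was 0.24 over the enzymes and transporters, 0.04 over the peroxins and -0.02 over all genes tested. In either direction the changes were modest: Nudt7 was the single called member that reached 2-fold, at 2.02-fold, and all 42 lay between -0.36 and 1.02 on the log2 scale. Over all genes, 14.2% were called higher and 12.8% lower, and 52.6% of the calls were higher. With limma on FPKM as deposited, 39.9% of the calls over all genes were higher, and the enzymes and transporters then gave 14 higher and 5 lower.

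**Figure D1:**
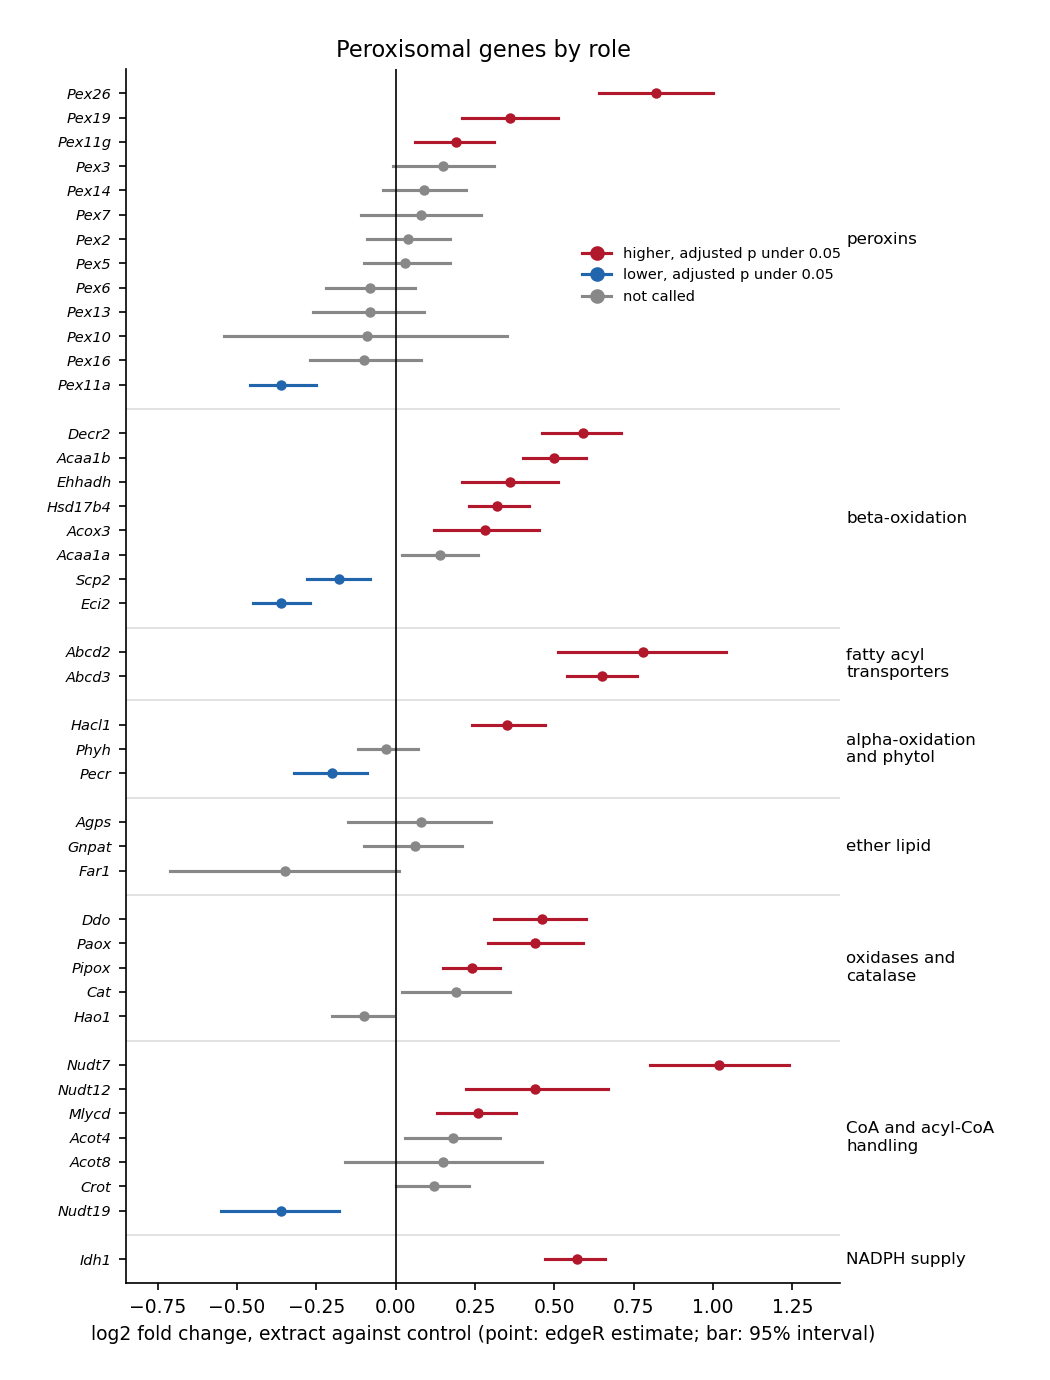
Log2 fold change of each of the 42 genes, extract against control, grouped by role; points are edgeR estimates, bars are 95% intervals and colour gives the call. Both transporters and 5 of 8 beta-oxidation genes are called higher, the 3 ether lipid genes are not called, and 9 of 13 peroxins are not called.

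The level of a gene bears on these shares, since abundant genes are called more often. Mean FPKM in control had a median of 30.4 for the enzymes and transporters (0.709 to 551) and of 8.71 for the peroxins (1.4 to 28). Among all genes with a mean of at least 10 FPKM over the 6 libraries, 51.5% were called. At that level 14 of 20 enzymes and transporters and 2 of 6 peroxins were called. Among genes of at least 1 FPKM, 36.6% were called, against 19 of 28 enzymes and transporters and 4 of 13 peroxins. The difference between the classes was not tested.

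**Figure D2:**
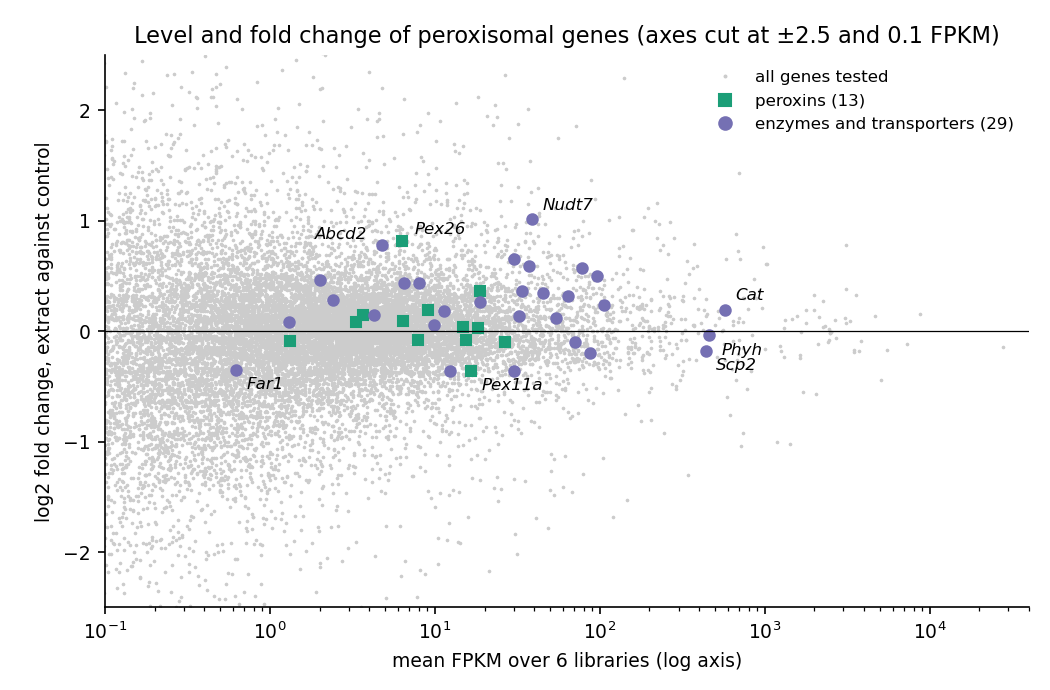
Mean FPKM over the 6 libraries (log axis) against log2 fold change, extract against control, for all genes tested (grey), the 13 peroxins (squares) and the 29 enzymes and transporters (circles). The enzymes reach higher levels than the peroxins, and the most abundant, Cat, Phyh and Scp2, lie near 0.

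Scp2, Phyh and Cat made up most of the transcripts of this group by level. Together they held 60.1% to 61.4% of the summed FPKM of the 42 genes in control and 56.2% to 57.5% in extract. The sum over all 29 enzymes and transporters was 2391, 2307 and 2271 FPKM in controls and 2395, 2488 and 2317 FPKM in extracts, with overlapping ranges and a ratio of means of 1.03. All sums here use FPKM as deposited, without the scaling of the counts in edgeR. Deposited FPKM leaned lower in extract: 26.9% of all genes tested had extract wholly below control and 17.7% wholly above. Ratios of these sums are therefore not on the scale of the edgeR fold changes. For Scp2, Phyh and Cat the sum was 1500 ± 56.1 FPKM in control and 1451 ± 62.1 in extract (SD, n = 3). The other 26 enzymes and transporters summed to 829, 825 and 817 FPKM in controls 1 to 3 and to 935, 980 and 932 FPKM in extracts 1 to 3. Every extract library was above every control library for these 26, with a ratio of means of 1.15, unlike the sum over all 29. The split was made after the levels had been seen. The 13 peroxins summed to 151, 151 and 147 FPKM in control and 144, 151 and 146 FPKM in extract, and these ranges overlap.

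Both fatty acyl-CoA transporters of the peroxisomal membrane were higher with the extract. Abcd3, which imports long-chain and branched acyl-CoA and bile acid precursors (GRCm38 chromosome 3, 121758774 to 121815302), was at 25.4, 23.3 and 23.3 FPKM in controls 1 to 3 and at 35.9, 36.4 and 35.9 FPKM in extracts 1 to 3. The groups were well apart, and the extract libraries nearly equal. Its log2 fold change was 0.65 ± 0.05 (1.57-fold, edgeR adjusted p = 6.78e-05). Abcd2, which imports very long-chain and polyunsaturated acyl-CoA, was at 4.36, 3.34 and 3.14 FPKM in control and at 5.76, 5.98 and 6.05 FPKM in extract. Control 1 was the highest of its group but below every extract library. Abcd2 rose by 0.78 ± 0.12 on the log2 scale (1.71-fold, edgeR adjusted p = 0.00219).

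In the beta-oxidation cycle, 5 of 8 genes rose, 2 fell and 1 was not called. That is 87.5% called, against 26.9% of all genes tested and 51.5% of those with a mean of at least 10 FPKM. Acox3, which was called, lay below that level, so the last share covers an unlike set of genes. Ehhadh, a bifunctional enzyme with hydratase and dehydrogenase activity, was at 33.2, 30.4 and 27.7 FPKM in control and at 37.7, 38.5 and 36.3 FPKM in extract. It rose 1.29-fold (log2 0.36 ± 0.06, edgeR adjusted p = 0.00469), with the lowest extract library above the highest control. Hsd17b4, the other bifunctional enzyme, which acts on very long-chain and branched substrates and on bile acid precursors, was at 59.8, 57.1 and 58.9 FPKM in control and at 69.2, 73 and 68.7 FPKM in extract. Its groups were also apart, at 1.25-fold (log2 0.32 ± 0.04, edgeR adjusted p = 0.000989). Acox3, an oxidase of branched-chain acyl-CoA, was a low transcript, at 2.05 to 2.4 FPKM in control and 2.54 to 2.7 FPKM in extract. It rose 1.22-fold (edgeR adjusted p = 0.0224). The Acox3 call was lost without control 2 (adjusted p = 0.0562), extract 2 (0.0769) or extract 3 (0.0636), with the replicate block (0.0568) and with limma on FPKM (0.0685).

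The last step of the cycle is a thiolase reaction, for which the mouse has a pair of near-identical genes on chromosome 9, Acaa1a (GRCm38, 119339676 to 119350298) and Acaa1b (119148023 to 119157093). Acaa1b was at 78.9, 83 and 82.5 FPKM in control and at 106, 116 and 110 FPKM in extract. It rose 1.41-fold (log2 0.50 ± 0.04, edgeR adjusted p = 0.00018), and each extract library exceeded each control. Acaa1a was at 30.5, 31.9 and 32 FPKM in control and at 31.9, 35.9 and 31.9 FPKM in extract, with overlapping groups. Its log2 fold change was 0.14, with a 95% interval of 0.02 to 0.26 (edgeR adjusted p = 0.0838). The ratio of Acaa1b to Acaa1a was 2.59, 2.61 and 2.58 in controls and 3.31, 3.23 and 3.44 in extracts, so the ranges of the ratio were apart. This ratio was taken after the values had been seen and was not tested. The coding sequences were 96.5% identical over 1272 aligned bases, and 30.5% of the 50-base windows in Acaa1b transcripts also occurred in Acaa1a transcripts. Reads can therefore be exchanged between them, and both values are uncertain. Acaa1a also shares 290 exonic bases with Myd88 on the opposite strand, which was at 6.5 FPKM in control and 4.51 FPKM in extract.

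The promoters of this pair are shown because the genes are near copies with separate start sites, and 1 of them was called. Each sequence runs from 250 bases before to 50 after the start (RefSeq, GRCm38.p6), and capitals mark CCAAT on either strand. The start of Acaa1a in RefSeq lies inside the span that the deposited table gives. The windows are chr9:119341044-119341343 (+) for Acaa1a and chr9:119157044-119157343 (-) for Acaa1b.
Acaa1a: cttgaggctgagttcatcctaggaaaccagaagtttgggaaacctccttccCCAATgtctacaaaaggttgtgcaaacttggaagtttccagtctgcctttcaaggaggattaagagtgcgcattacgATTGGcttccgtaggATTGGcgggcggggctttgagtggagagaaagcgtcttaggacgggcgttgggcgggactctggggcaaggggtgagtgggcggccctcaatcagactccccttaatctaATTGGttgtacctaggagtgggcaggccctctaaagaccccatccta
Acaa1b: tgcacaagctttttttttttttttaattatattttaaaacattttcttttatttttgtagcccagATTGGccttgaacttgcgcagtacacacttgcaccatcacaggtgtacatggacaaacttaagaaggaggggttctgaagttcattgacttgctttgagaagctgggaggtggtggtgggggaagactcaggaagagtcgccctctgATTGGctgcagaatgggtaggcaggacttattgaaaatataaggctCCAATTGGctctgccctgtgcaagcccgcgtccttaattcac
Both windows held 4 matches, of which a pair overlap in Acaa1b, and their GC content was 53.3% in Acaa1a and 43.7% in Acaa1b.

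RefSeq promoters of 300 bases were matched for 37 of the 42 genes, with no entry for Pex2, Pex19, Hsd17b4, Abcd2 and Nudt12. The direct repeat of AGGTCA with a single base between the copies, which PPAR and RXR dimers read, was searched on both strands. It was in 0 of the 37 and in 0.0481% of all genes with a promoter, which says only that these letters are not in these windows. The single AGGTCA, which is part of that repeat, was in 6 of 37 (16.2%) against 18.1% of all genes. CCAAT was in 18 of 37 (48.6%) against 41.1%, in 3 of 11 peroxins and 15 of 26 enzymes and transporters. GGGCGG was in 26 of 37 (70.3%) against 38.2%, in 9 of 11 peroxins and 17 of 26 enzymes and transporters. These are descriptions of letters, with no test.

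The genes that prepare unsaturated fatty acids for the cycle moved in both directions. Decr2, a reductase of dienoyl-CoA (GRCm38 chromosome 17, 26081208 to 26090337), was at 32.7, 30.3 and 28.9 FPKM in control and at 42.7, 44.8 and 44.9 FPKM in extract. It rose by 0.59 ± 0.05 on the log2 scale (edgeR adjusted p = 0.000217). Eci2, an isomerase of enoyl-CoA (GRCm38 chromosome 13, 34977748 to 35027096), was at 33.8, 34.6 and 35.2 FPKM in control and at 25.3, 25.9 and 26.2 FPKM in extract, so that its groups were apart in the other direction. It fell by 0.36 ± 0.04 on the log2 scale (edgeR adjusted p = 0.000574). In controls these genes had about equal levels, with a ratio of Decr2 to Eci2 of 0.967, 0.878 and 0.823, and in extracts the ratio was 1.69, 1.73 and 1.71. This ratio, too, was taken after the values had been seen.

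Scp2 encodes a thiolase for branched chains and bile acid precursors and, from a shorter transcript, a sterol carrier protein. It was among the most abundant genes of the group, at 484, 466 and 479 FPKM in control and 407, 421 and 380 FPKM in extract. It fell by 0.18 ± 0.04 on the log2 scale (edgeR adjusted p = 0.0156), with all extract libraries below all controls. The call was lost without extract 1 (adjusted p = 0.0808) or extract 3 (0.0652) and with the replicate block (0.0552).

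Alpha-oxidation removes a single carbon from phytanic acid, a branched fatty acid derived from chlorophyll. Its first enzyme, Phyh, was at 464, 466 and 485 FPKM in control and 447, 464 and 423 FPKM in extract. After scaling of the counts its log2 fold change was -0.03 (95% interval -0.12 to 0.07, edgeR adjusted p = 0.706), although every extract library was below every control in FPKM, by less than the printed digits show at 464. Hacl1, the lyase of the pathway, was at 42.3, 38.4 and 41.1 FPKM in control and 49.6, 50.9 and 49 FPKM in extract. It rose 1.28-fold (log2 0.35 ± 0.05, edgeR adjusted p = 0.00141) with groups apart. An annotated gene on the same strand covers 31.1% of the Hacl1 exon bases and was not analysed here, so this value is uncertain. Pecr, an enoyl-CoA reductase with a role in phytol breakdown, was at 93.3 to 95.6 FPKM in control and 75.7 to 84.9 FPKM in extract. It fell by 0.20 ± 0.05 on the log2 scale (edgeR adjusted p = 0.0182), a call lost without control 2 (0.0555), extract 1 (0.107) or extract 3 (0.0761).

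Of the 4 enzymes and transporters called lower (Scp2, Pecr, Eci2 and Nudt19), Eci2 and Nudt19 were past the threshold under all 16 alternatives. The number called lower was 2 without extract 1 and 2 without extract 3.

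The 3 genes that begin ether lipid synthesis were not called. Gnpat, the acyltransferase, was at 10.7, 9.93 and 9.04 FPKM in control and 9.94, 9.67 and 9.99 FPKM in extract. Its log2 fold change was 0.06 (95% interval -0.10 to 0.21). Agps, the alkyl synthase, was at 1.16 to 1.44 FPKM in control and 1.24 to 1.41 FPKM in extract (0.08, interval -0.15 to 0.30). Far1, the reductase that supplies the fatty alcohol, was the lowest member, at 0.6, 0.755 and 0.773 FPKM in control and 0.544, 0.604 and 0.448 FPKM in extract. Its estimate was -0.35 with a wide interval of -0.71 to 0.01 (edgeR adjusted p = 0.139), and its groups overlapped.

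Besides Acox3, given above and called higher, the 42 genes held 4 oxidases that produce hydrogen peroxide. Of these 4, 3 were higher, where 14.2% of all genes tested were higher. Other oxidases of the organelle went the other way. Uox and Hao2, which are not among the 42 and were named after their values were seen, were lower, at 337 ± 9.96 against 261 ± 14.3 FPKM and 3.9 ± 0.623 against 2.49 ± 0.189 FPKM (SD, n = 3, edgeR adjusted p = 0.00231 and 0.0198). Pipox, which oxidises pipecolic acid and sarcosine, was at 98.2, 99.4 and 101 FPKM in control and 115, 115 and 108 FPKM in extract (1.18-fold, log2 0.24 ± 0.04, edgeR adjusted p = 0.00308). Paox, which oxidises acetylated polyamines, was at 7.23, 7.34 and 6.35 FPKM in control and 8.72, 9.6 and 8.8 FPKM in extract (1.35-fold, log2 0.44 ± 0.07, edgeR adjusted p = 0.00216). In both genes every extract library lay above every control. Ddo, which oxidises D-aspartate, was at 1.67, 1.78 and 1.79 FPKM in control and 2.42, 2.27 and 2.21 FPKM in extract. It is a low transcript whose groups were nevertheless apart (1.37-fold, log2 0.46 ± 0.06, edgeR adjusted p = 0.00136). Hao1, the glycolate oxidase, was at 73.7 to 75.6 FPKM in control and 62.8 to 69.5 FPKM in extract, with a log2 fold change of -0.10 (interval -0.20 to -0.01). It was not called by edgeR (adjusted p = 0.0978), and was called lower by limma on FPKM (adjusted p = 0.0334).

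Cat, catalase, which removes the hydrogen peroxide, was at 614, 550 and 490 FPKM in control and 606, 623 and 581 FPKM in extract. The control libraries spread widely and control 1 lay within the extract range, so the groups overlapped. Its log2 fold change was 0.19 (interval 0.02 to 0.36, edgeR adjusted p = 0.0905). The call depended on the tool and on control 1: DESeq2 gave an adjusted p of 0.00772, and edgeR without control 1 gave 0.00642.

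Genes that handle coenzyme A and acyl-CoA included the largest rise of the group. Nudt7, which hydrolyses coenzyme A and its esters inside peroxisomes (GRCm38 chromosome 8, 114133557 to 114154739), was at 27.8, 29.4 and 21.7 FPKM in control and 50.1, 51.9 and 50.8 FPKM in extract. Control 3 was the lowest, the extract libraries were close together, and the groups were far apart (log2 1.02 ± 0.10, 2.02-fold, edgeR adjusted p = 0.000222). Nudt19, another coenzyme A hydrolase, moved the other way. It was at 13.5, 14.1 and 14.8 FPKM in control and 9.36, 11.2 and 11 FPKM in extract, and fell by 0.36 ± 0.08 on the log2 scale (edgeR adjusted p = 0.0124). An antisense gene covers 35% of its exon bases, with a mean of 0.071 FPKM in control and 0.0861 in extract. Nudt12, which hydrolyses nicotinamide dinucleotides, was at 5.02, 5.52 and 6.47 FPKM in control and 7.58, 7.77 and 6.82 FPKM in extract (1.36-fold, log2 0.44 ± 0.10, edgeR adjusted p = 0.0126). The gap between its groups was small, and the call was lost without control 2 (adjusted p = 0.0594) or extract 2 (0.0547), and in limma when unfiltered FPKM were used (0.0728).

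Mlycd, which breaks down malonyl-CoA, was at 17, 18.2 and 17.5 FPKM in control and 19.3, 19.7 and 21.2 FPKM in extract (1.19-fold, log2 0.26 ± 0.06, edgeR adjusted p = 0.0115). Its groups were apart, and the call was lost in limma when unfiltered FPKM were used (adjusted p = 0.0546). The remaining genes of this set were not called. Crot, which attaches carnitine to medium-chain products for export, was at 51.5 to 55.6 FPKM in control and 54.5 to 57 FPKM in extract (log2 0.12, edgeR adjusted p = 0.116, and 0.0322 without control 3). Acot4, a thioesterase of dicarboxylic acyl-CoA, was at 10.3 to 12 against 11.8 to 11.9 FPKM (log2 0.18, edgeR adjusted p = 0.0725, 0.0296 with DESeq2 and 0.00754 without control 1). Acot8, a thioesterase of broad specificity, was at 3.88 to 4.56 against 3.56 to 5.07 FPKM, with the extract range enclosing the control range (log2 0.15, interval -0.16 to 0.46).

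Idh1, the isocitrate dehydrogenase of cytosol and peroxisome that supplies NADPH (GRCm38 chromosome 1, 65158616 to 65186500), was at 66.4, 65.1 and 61.9 FPKM in control and 90.1, 95.4 and 89.5 FPKM in extract. It rose 1.48-fold (log2 0.57 ± 0.04, edgeR adjusted p = 7.12e-05), with a wide gap between the groups.

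**Figure D3:**
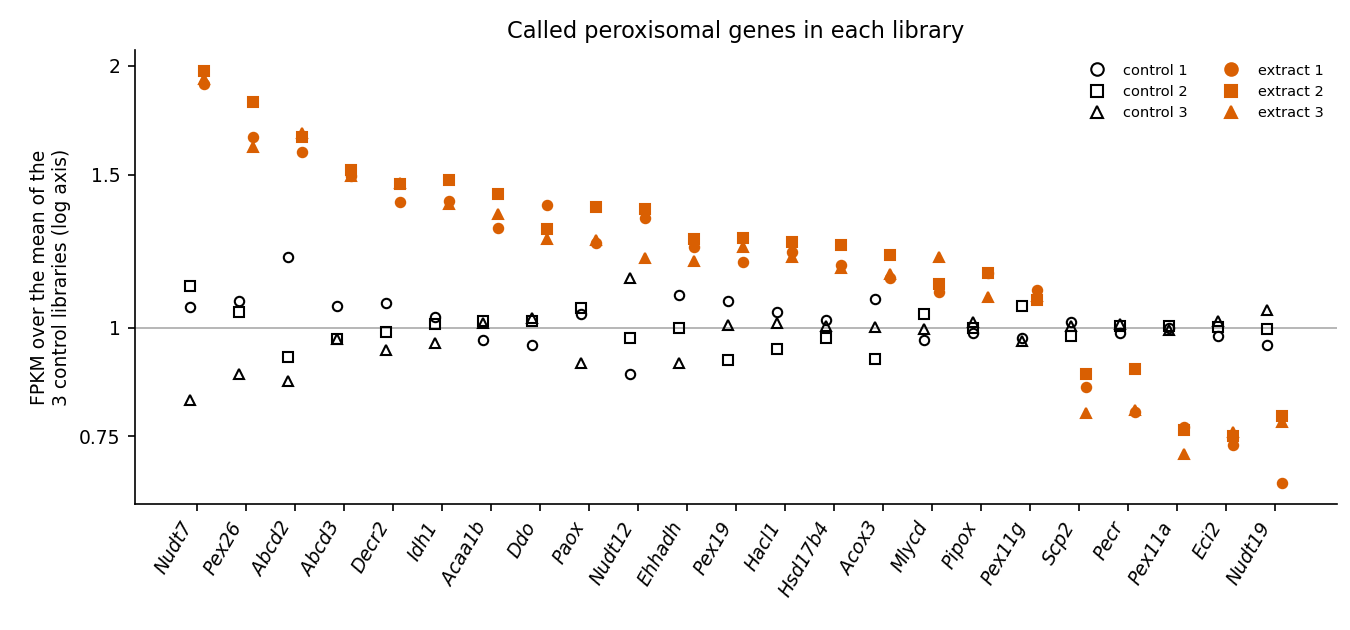
FPKM of the 23 called genes in each library, divided by the mean of the 3 control libraries (log axis), in order of edgeR fold change; open symbols are control and filled symbols extract libraries. In each of the 23 genes the extract libraries lie wholly above (18) or wholly below (5) the control libraries.

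Groups of FPKM values did not overlap in 26 of the 42 genes (61.9%), 18 with extract above and 8 below, where 44.6% of all genes tested did not overlap. Over all genes tested, 17.7% had extract above and 26.9% had extract below, so deposited FPKM leaned lower in extract. By class this was 21 of 29 enzymes and transporters (72.4%) and 5 of 13 peroxins (38.5%). The median coefficient of variation of FPKM over 3 libraries was 6.22% in control and 3.79% in extract, with the highest values in Abcd2 for control (18.1%) and Pex10 for extract (22.6%).

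Among the peroxins the largest difference was in Pex26, the membrane anchor of the ATPase complex that recycles the import receptor (GRCm38 chromosome 6, 121183667 to 121198837). It was at 5.02, 4.87 and 4.13 FPKM in control and 7.74, 8.49 and 7.54 FPKM in extract. The groups were well apart, with a rise of 0.82 ± 0.08 on the log2 scale (1.77-fold, edgeR adjusted p = 0.000244). Pex6, an ATPase of that complex, was at 15.8, 17.6 and 15.1 FPKM in control and 14.1, 14.9 and 14.9 FPKM in extract and was not called (log2 -0.08, interval -0.22 to 0.06).

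Pex19, the cytosolic chaperone of newly made membrane proteins, was at 18.1, 15.5 and 17 FPKM in control and 20.1, 21.4 and 20.9 FPKM in extract. It rose 1.28-fold (log2 0.36 ± 0.07, edgeR adjusted p = 0.00542), and the groups were apart. Its docking partners on the membrane were not called. Pex3 was at 3.44 to 3.79 FPKM in control and 3.67 to 3.96 FPKM in extract (log2 0.15, interval -0.01 to 0.31), and Pex16 at 24.9 to 29.6 against 23.3 to 27 FPKM (log2 -0.10, interval -0.27 to 0.08).

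The Pex11 genes, whose proteins elongate and divide the organelle, moved in both directions. Pex11a, the form induced by peroxisome proliferators in rodents (GRCm38 chromosome 7, 79735957 to 79743131), was at 19, 19.1 and 18.9 FPKM in control and 14.6, 14.5 and 13.6 FPKM in extract. The controls were nearly equal and every extract library was below them, with a fall of 0.36 ± 0.04 on the log2 scale (edgeR adjusted p = 0.000898). Pex11g was at 8.48, 9.23 and 8.42 FPKM in control and 9.62, 9.37 and 9.48 FPKM in extract, a narrow gap (log2 0.19 ± 0.05, edgeR adjusted p = 0.0366). The Pex11g call was lost under 12 of 16 alternatives, among them leaving out control 1 (adjusted p = 0.0911), control 3 (0.0745), extract 1 (0.0808), extract 2 (0.062) or extract 3 (0.103), DESeq2 (0.0589) and the replicate block (0.096). Reads of an overlapping annotated gene, which covers 41.1% of the Pex11g exon bases and was at 0.163 and 0.192 FPKM, cannot be told apart from its own without strand.

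The import machinery was not called. Pex5, the receptor for the common C-terminal targeting signal, was at 18.3, 17.4 and 19.8 FPKM in control and 18.5, 18.4 and 17.6 FPKM in extract (log2 0.03, interval -0.10 to 0.17). Pex7, the receptor for the N-terminal signal, was at 2.98 to 3.65 against 3.08 to 3.52 FPKM (0.08, interval -0.11 to 0.27). In both the ranges overlapped. The docking proteins Pex13 and Pex14 had estimates of -0.08 (interval -0.26 to 0.09) and 0.09 (interval -0.04 to 0.22). The ubiquitin ligase subunits Pex2 and Pex10 had estimates of 0.04 (interval -0.09 to 0.17) and -0.09 (interval -0.54 to 0.35). Pex10, at 0.926 to 1.56 FPKM over the 6 libraries, was the least precise peroxin.

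In a separate list of 35 other peroxisomal genes, 34 were tested, 13 rose, 8 fell and 13 were not called, which is 61.8% called against 26.9% of all genes. The median log2 fold change was 0.14. Baat, which conjugates bile acids, rose 1.51-fold from 61.8 ± 2.25 to 89.7 ± 2.95 FPKM (SD, n = 3, edgeR adjusted p = 9.26e-05). On the lower side, Agxt, which detoxifies glyoxylate, went from 112 ± 6.56 to 68.5 ± 3.81 FPKM (edgeR adjusted p = 9.99e-05). Gstk1, a glutathione transferase of mitochondria and peroxisomes, went from 54.7 ± 3.6 to 35 ± 0.663 FPKM (edgeR adjusted p = 0.000183). Without a filter on low values, limma on FPKM called 7 of these genes higher, not 13. The table's own KEGG term for the peroxisome held 84 genes, 41 of them among the 42 described here. Of its 82 genes tested, 35 were higher and 12 lower (57.3%).

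Receptors and cofactors that act on peroxisomal genes were listed as well, and 4 of 9 rose and 2 fell, where 14.2% of all genes tested were higher and 12.8% lower. Ppara, which encodes PPARalpha, was at 13.4, 11.2 and 10 FPKM in control and 23.7, 23.1 and 25.4 FPKM in extract. Each extract library was far above each control (log2 1.12 ± 0.10, 2.18-fold, edgeR adjusted p = 0.000207). Rxra, its partner receptor, went from 55.4 ± 0.884 to 67.2 ± 0.812 FPKM (SD, n = 3, 1.27-fold, edgeR adjusted p = 0.000595), and the corepressor Ncor1 from 5.03 ± 0.276 to 6.32 ± 0.257 FPKM (1.31-fold, edgeR adjusted p = 0.0025). Pparg, the fat-storage receptor of the family, was low, at 1.1, 1.17 and 1.66 FPKM in control and 2.55, 2.88 and 2.71 FPKM in extract (2.16-fold, edgeR adjusted p = 0.00253).

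Both coactivators of the PGC-1 family fell. Ppargc1a was at 2.67, 2.23 and 2.42 FPKM in control and 1.33, 1.24 and 1.22 FPKM in extract, with no overlap (a fall of 0.89 ± 0.09 on the log2 scale, edgeR adjusted p = 0.00032). Ppargc1b was at 1.1, 1 and 0.831 FPKM in control and 0.653, 0.575 and 0.558 FPKM in extract, and fell by 0.65 ± 0.16 on the log2 scale (edgeR adjusted p = 0.0201). The Ppargc1b call was lost without control 1 (adjusted p = 0.058), control 2 (0.0668), extract 2 (0.0716) or extract 3 (0.0688). Ppard, Rxrb and Med1 were not called, with adjusted p of 0.35, 0.0583 and 0.109 from edgeR. Rxrb was called lower by limma on FPKM (0.0287) and by edgeR on counts divided by 4 (0.0458).

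**Figure D4:**
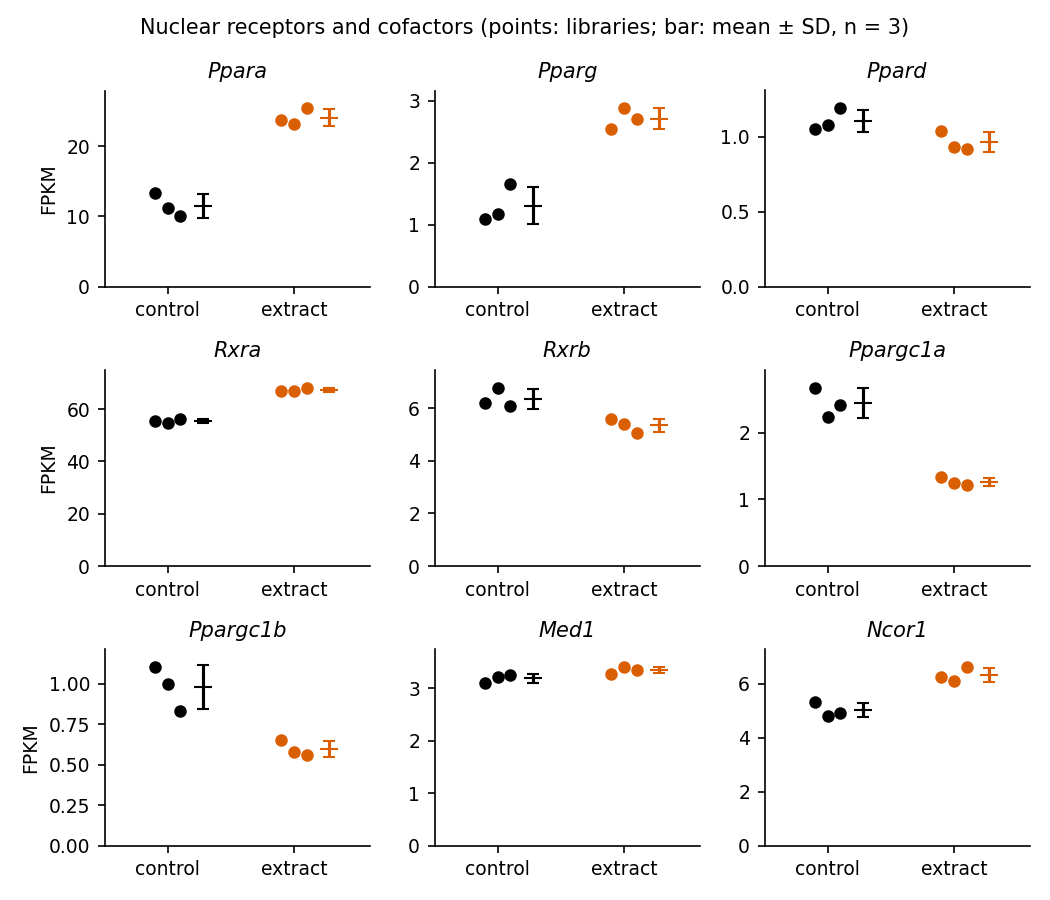
FPKM of 9 nuclear receptors and cofactors in each library, with mean ± SD (n = 3) beside the points; each panel has its own axis from 0. Ppara and Pparg are higher in all 3 extract libraries, and Ppargc1a and Ppargc1b lower in all 3.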

How the data were processed

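Libraries were made from total RNA with oligo(dT) beads, per the labels' protocols. Tools listed in the submitters' processing notes, without roles, are HISAT2 2.0.4, cutadapt 1.9, edgeR and StringTie 1.3.4d. The genome build and the use of strand are not given in the sources used here. Spans of the table equal GENCODE M21 on GRCm38 for 87.4% of shared identifiers and for 37 of the 42 genes, and coordinates are printed as the table gives them. The deposited counts are whole numbers and were used as they stand. The commonest count was 0 (46327 entries). Among counts of 1 to 12 the commonest was 4 (6292 entries, against 5334 at 1, 4117 at 3 and 2133 at 5), so a few counts may come from a single read pair. FPKM values are those deposited by the authors. A further 6 columns of per-sample values match no sample and were not used. Columns were matched to groups by the code and number in the sample titles.

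Counts were tested with edgeR 4.0.16 (R 4.3.3; filterByExpr, TMM, quasi-likelihood test, two-sided). The standard error is the log2 fold change over the root of its F value. Alternatives were DESeq2 1.42.0, limma 3.58.1 on FPKM (pseudocounts 0.5, 0.1 and 1, a minimum mean of 0.5 or none, TMM factors), RLE factors, no filter, counts divided by 4, the replicate number as a block, and each library left out. The steps were tested on simulated data. The 42 genes and all lists were chosen with earlier results of these data known. By the rule for named genes, the 20 called members with the smallest p are given in full, and up to 4 called genes of the other peroxisomal list are named, of which 1 is not reported here. Genes with near-identical copies or overlapping genes are uncertain.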

Additional observations from a re-analysis of the deposited data

How the results depend on the processing

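Of the 23 called members, 17 were past the threshold under all 16 alternatives, 6 were lost under at least 1 and 0 changed direction; 4 uncalled members were called under at least 1. The peroxins gave 3 or 4 calls and the enzymes and transporters 16 to 21. Leaving out a library gave 3237 to 4706 calls over all genes, 1442 to 2153 of them lower, and 2 to 4 lower enzymes and transporters. The lowest totals were 3237 without extract 2 and, for lower calls, 1442 without control 2, 1480 without extract 1 and 1461 without extract 2. Limma on FPKM with no filter gave 1485 higher calls over all genes and 7 among the other peroxisomal genes. With the replicate number as a block, edgeR called 3746 genes, 3 peroxins (2 higher, 1 lower), 17 enzymes and transporters (14 higher, 3 lower) and 17 other peroxisomal genes. The labels do not pair the libraries, and deviations of same-numbered libraries correlated at -0.117, -0.028 and -0.089, so the numbers are not taken as pairs. Some uncalled genes changed sign: with limma on FPKM other than with TMM factors, Pex2 and Pex5 were at -0.02 and Gnpat at -0.0019 or -0.002. With 1 library left out, Pex5 ranged from -0.02 (without control 2) to 0.09, Pex10 from -0.20 to 0.10 (without extract 1), and Phyh from -0.04 to 0.0047 (without control 3; 0.0029 without extract 3). The causes were not tested.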
